A study of Mus musculus with 28 samples.

Results

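The transcripts described here belong to 34 genes of glycolysis and of the response to low oxygen, measured by RNA-seq in V6.5 mouse embryonic stem cells (ESCs) with and without Tet2. They were chosen by gene symbol from a list of pathway members, with earlier results of these data known. All 34 were present among the 17342 genes of the deposited table, and all 34 passed the filter on low values that left 17338 genes for testing. Of these, 23 act in glucose uptake, glycolysis, lactate handling or the control of glycolytic flux, and 11 are hypoxia-responsive genes outside that pathway.

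Glycolysis splits glucose into pyruvate, which is reduced to lactate or passed to the mitochondria. Hypoxia-inducible factors (HIFs) are transcription factors that are hydroxylated and degraded when oxygen is plentiful, and that activate many glycolytic enzymes when it is scarce. Mouse ESCs in serum rely on both glycolysis and respiration. Tet2 is a dioxygenase that oxidises 5-methylcytosine and needs oxygen, iron and 2-oxoglutarate, as the prolyl hydroxylases that mark HIFs do.

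The study compared 3 genotypes to separate functions of Tet2 that need its catalysis from those that do not. The Tet2-WT group held 3 independent ESC samples, the Tet2-Mut group 2 clones and the Tet2-KO group 2 clones. All were male cells of the V6.5 strain, mixed 129/C57BL/6, grown in serum with LIF. They were kept on feeder cells, freed of feeders by pre-plating and left on gelatin overnight before RNA was taken. The labels call the Tet2-Mut cells mutant and do not describe the mutation. With 2 clones per altered genotype, a difference between genotypes and a difference between individual clones cannot be told apart in full, and the error behind each p-value is the spread among these clones and cultures.

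Values are normalized counts, that is, read counts per gene divided by a size factor per library, so they compare libraries for 1 gene and not genes with each other. Between 41.9 M and 58.5 M reads per library were assigned to genes. Tet2 itself had normalized counts of 10343, 10244 and 12074 in Tet2-WT, 9992 and 13181 in Tet2-Mut, and 4624 and 5206 in Tet2-KO, so the knockout libraries kept part of the transcript. All 10 markers of pluripotent cells were present in every library, and the lowest value among them was 6746. Of 17 listed fibroblast markers, used here as markers of feeder cells, 15 were in the table, and Lum and Dcn were not. Each of the 15 was higher in both Tet2-KO clones than in every Tet2-WT library, where 21.9% of all genes were. Their summed normalized count was 3645 to 4320 in Tet2-WT, 5934 and 3806 in Tet2-Mut replicates 1 and 2, and 14911 and 8207 in Tet2-KO replicates 1 and 2. In bulk RNA, fewer cells that make a transcript and less transcript per cell cannot be told apart.

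In Tet2-Mut, the log2 fold change against Tet2-WT was negative for 34 of 34 members, where 48.5% of all genes tested were negative. As members were chosen with earlier results known, this share and those below describe the list and do not test it. The median was -0.57 for the members and 0.01 for all genes. Without Tet2-Mut replicate 2 there were 26 negative members and a median of -0.29, and without replicate 1 there were 34 and a median of -0.93. Past the test, which is limma on log2(normalized count + 1) with adjusted p under 0.05 over all genes, 5 members fell: Hk1, Ldhb, Vegfa, P4ha2 and Ndrg1. Of all genes tested, 1.98% fell in this comparison and 3.43% changed in either direction. With limma, edgeR and DESeq2 0 members rose, where limma called 1.44% of all genes higher. At an unadjusted p under 0.05 there were 23 members, and 3651 of all 17338 genes.

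In Tet2-KO, 27 of 34 members had a negative log2 fold change against Tet2-WT, where 50.4% of all genes did. The median was -0.23 for the members and 0.00 for all genes. Without Tet2-KO replicate 1 it was -0.12, with 21 negative members, and without replicate 2 it was -0.39, with 28. Past the same test 3 members fell, namely Hk1, Vegfa and Pdk1, against 2.91% of all genes that fell and 5.91% that changed in either direction. With limma and edgeR 0 members rose, where limma called 521 of the 17338 genes higher, and DESeq2 called Ldhb higher. At an unadjusted p under 0.05 there were 13 members, and 4019 of all 17338 genes. Both comparisons use the same Tet2-WT libraries, so their results are given side by side and not as independent of each other.

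**Figure D1:**
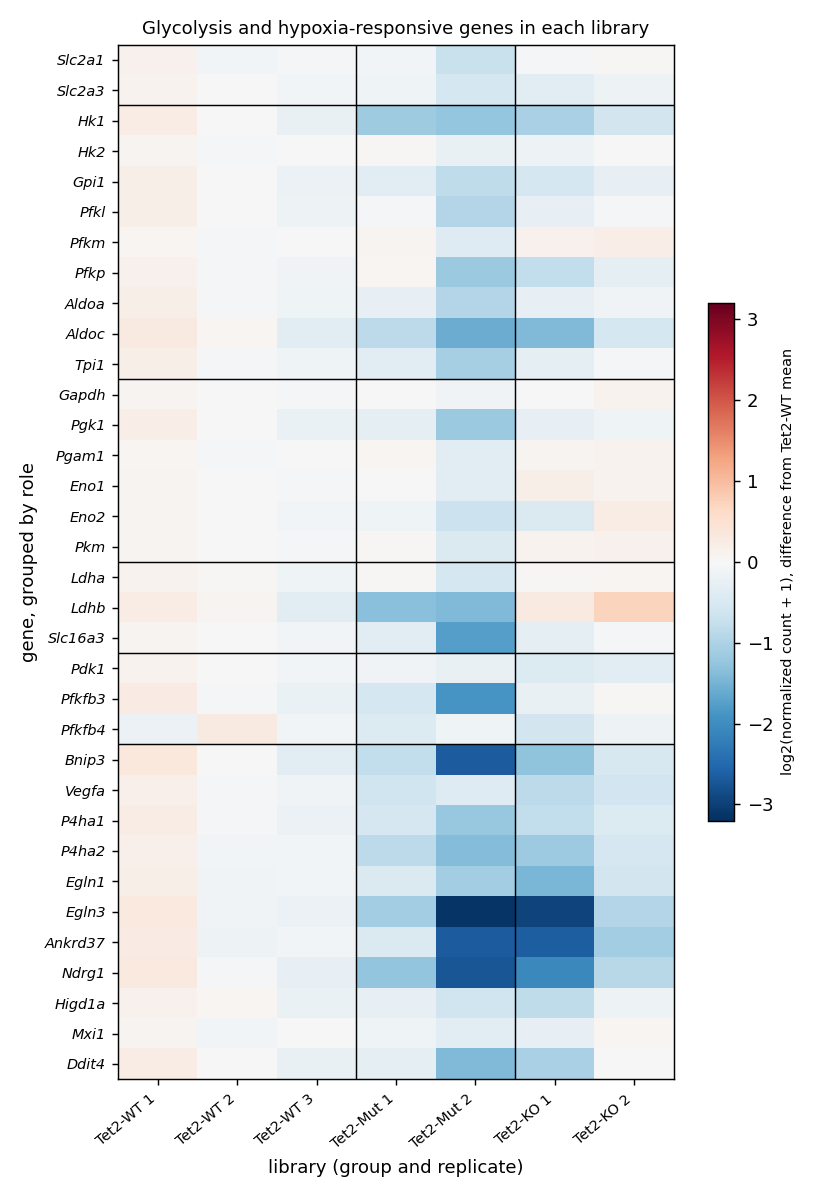
Log2 difference of each of the 34 members (rows, grouped by role) from the mean of the Tet2-WT libraries, in each of the 7 libraries (columns); colour gives the difference. Tet2-Mut replicate 2 is the lowest of the 4 clones for 29 of 34 members, against 30.9% of all genes. All 4 clones are below every Tet2-WT library for 8 of 11 hypoxia-responsive rows and 5 of 23 glycolytic rows, against 8.91%.

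Clones of the same genotype differed from each other. Tet2-Mut replicate 2 lay below every Tet2-WT library for 33 of 34 members, and Tet2-Mut replicate 1 for 25, against 35.4% and 33.4% of all genes. Replicate 2 was below replicate 1 for 32 members, where 50.8% of all genes were, and was the lowest of the 4 clones for 29, where 30.9% were. Tet2-KO replicate 1 lay below every Tet2-WT library for 26 members and Tet2-KO replicate 2 for 14, against 37.0% and 34.2% of all genes. Replicate 1 was the lower of the Tet2-KO clones for 33 of 34 members, where 48.5% of all genes were. The Tet2-WT libraries differed too: replicate 1 was the highest of them for 33 members, where 34.6% of all genes were.

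Counting only members for which both clones of a genotype were below every Tet2-WT library gave 24 in Tet2-Mut, against 19.8% of all genes, and 14 in Tet2-KO, against 22.8%. No member had both Tet2-Mut clones above every Tet2-WT library, where 20.9% of all genes did. All 4 clones were below every Tet2-WT library for 13 members, against 8.91% of all genes. The hypoxia-responsive genes made up 8 of these 13, out of 11 such members, and the glycolytic genes 5, out of 23. Both Tet2-KO clones were above every Tet2-WT library for 5 members, all of them glycolytic, where 21.9% of all genes were.

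**Figure D2:**
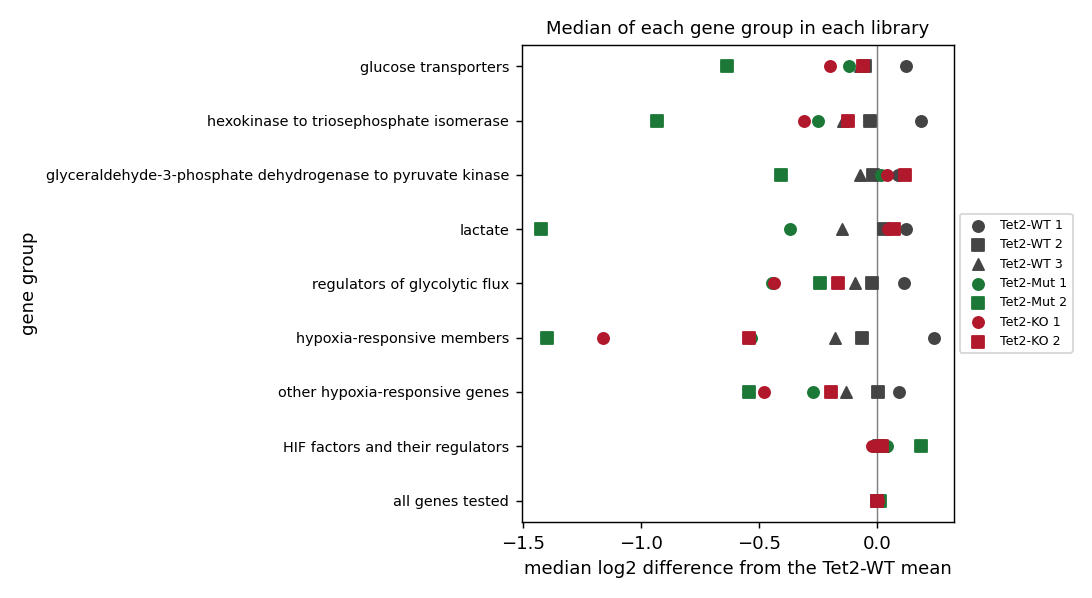
Median log2 difference from the Tet2-WT mean over the members of each role, one point per library (colour for group, shape for replicate), with other gene lists and all genes tested below them. For the 11 hypoxia-responsive genes the median is -0.53 and -1.40 in Tet2-Mut and -1.16 and -0.54 in Tet2-KO, and for all genes it is close to 0 in every library.

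The promoters of 32 of the 34 members were in the RefSeq table of the mm10 build (GRCm38.p6), which gives 250 bases before and 50 bases after each annotated start. Ndrg1 and Slc2a3 had no entry. The promoters were searched on both strands for ACGTG, a form of the core of the element that HIFs bind, which reads CACGT on the other strand. The form of the core that starts with G, GCGTG, was not searched. A palindromic CACGTG holds ACGTG at overlapping positions on both strands and also matches the E-box of other factors. At least 1 match was present for 23 of 32 members, which is 71.9%, and for 28.4% of all 12102 genes with a promoter in the table. All 10 hypoxia-responsive members with an entry held a match in at least 1 window, as did 13 of 22 glycolytic members. Of these 10, Vegfa and Mxi1 held no match in the window of their most upstream annotated start. Their matches lay in windows of starts further inside the gene. Pdk1, a glycolytic member, held no ACGTG, though GCGTG occurs in its promoter sequence. Among hypoxia-responsive genes outside the 34, 11 of the 22 with an entry held a match, which is 50%. A match is a description of the letters and not a bound site, and a window without a match says only that these letters are not in it.

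The windows below belong to members whose values in every library are given in the results that follow, each 5′ to 3′ on the strand of the gene with matches in capitals. Hk1 (chr10:62340372-62340671, minus strand) and P4ha2 (chr11:54100674-54100973, plus strand) each held 2 matches. Hk1 has another annotated start further upstream, and Ldha another further downstream, whose windows held none. Bnip3 (chr7:138909457-138909756, minus strand) held a palindrome and Egln3 (chr12:54203825-54204124, minus strand) 1 match. Ldha (chr7:46845554-46845853, plus strand) held matches at 5 positions, with each of its palindromes counted at both of its positions. Its partner subunit Ldhb (chr6:142507908-142508207, minus strand) held none, though its window holds GCGTG.
Hk1: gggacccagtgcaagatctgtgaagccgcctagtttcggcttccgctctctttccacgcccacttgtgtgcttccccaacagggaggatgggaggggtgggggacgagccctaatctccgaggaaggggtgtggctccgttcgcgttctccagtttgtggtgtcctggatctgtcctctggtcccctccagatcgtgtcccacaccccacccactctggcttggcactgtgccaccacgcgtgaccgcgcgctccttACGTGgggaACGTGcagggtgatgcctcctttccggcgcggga
P4ha2: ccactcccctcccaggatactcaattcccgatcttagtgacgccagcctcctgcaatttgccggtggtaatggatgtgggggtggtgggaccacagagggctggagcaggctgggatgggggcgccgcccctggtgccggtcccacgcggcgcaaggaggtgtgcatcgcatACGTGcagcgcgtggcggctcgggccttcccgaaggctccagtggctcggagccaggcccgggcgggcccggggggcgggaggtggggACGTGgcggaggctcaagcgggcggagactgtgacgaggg
Bnip3: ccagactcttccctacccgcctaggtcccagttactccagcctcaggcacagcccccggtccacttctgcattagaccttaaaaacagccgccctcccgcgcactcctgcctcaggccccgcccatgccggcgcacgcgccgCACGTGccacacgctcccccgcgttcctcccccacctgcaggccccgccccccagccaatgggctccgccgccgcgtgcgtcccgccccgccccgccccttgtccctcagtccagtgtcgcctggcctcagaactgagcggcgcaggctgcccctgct
Egln3: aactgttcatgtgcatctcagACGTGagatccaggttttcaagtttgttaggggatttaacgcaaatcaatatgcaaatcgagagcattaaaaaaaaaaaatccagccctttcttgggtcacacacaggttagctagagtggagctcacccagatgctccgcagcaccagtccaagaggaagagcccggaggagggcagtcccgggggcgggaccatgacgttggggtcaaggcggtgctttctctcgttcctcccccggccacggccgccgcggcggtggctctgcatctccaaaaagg
Ldha: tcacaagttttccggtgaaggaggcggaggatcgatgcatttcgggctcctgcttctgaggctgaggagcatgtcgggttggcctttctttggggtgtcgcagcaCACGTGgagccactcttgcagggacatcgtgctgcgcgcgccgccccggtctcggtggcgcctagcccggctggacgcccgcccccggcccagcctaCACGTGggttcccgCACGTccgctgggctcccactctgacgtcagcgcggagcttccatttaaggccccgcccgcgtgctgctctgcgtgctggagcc
Ldhb: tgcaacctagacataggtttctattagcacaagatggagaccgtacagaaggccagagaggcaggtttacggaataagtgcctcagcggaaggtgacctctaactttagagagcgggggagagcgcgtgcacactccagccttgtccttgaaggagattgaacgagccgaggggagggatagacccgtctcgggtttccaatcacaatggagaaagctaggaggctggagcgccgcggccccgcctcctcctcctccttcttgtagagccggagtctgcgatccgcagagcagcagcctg

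Slc2a1 and Slc2a3, both glucose importers, were lower in both Tet2-Mut clones than in every Tet2-WT library, at log2 fold changes of -0.40 and -0.35, and neither passed the test (limma adjusted p = 0.18 and 0.14). Tet2-Mut replicate 2 had 60.9% and 67.7% of the Tet2-WT mean, and replicate 1 had 93.6% and 90.1%. In Tet2-KO their log2 fold changes were -0.01 and -0.25.

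Hk1, a hexokinase that commits glucose to the cell by phosphorylating it, had normalized counts of 6160, 5130 and 4436 in Tet2-WT. It had 2350 and 2219 in Tet2-Mut and 2530 and 3440 in Tet2-KO. All 4 clones were below every Tet2-WT library, and the Tet2-Mut clones were close together. The log2 fold change was -1.19 ± 0.15 (SE) in Tet2-Mut and -0.82 ± 0.15 in Tet2-KO (limma adjusted p = 0.014 and 0.022), so that Hk1 fell by 56.0% and fell by 43.2%. Hk1 lies on chromosome 10 at 62268855 to 62379920.

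Hk2, the other hexokinase in the list and a classical hypoxia target, did not pass the test. Its normalized count ranged from 24374 to 27112 in Tet2-WT, was 26144 and 21676 in Tet2-Mut, and was 22793 and 25780 in Tet2-KO, so both groups overlapped with Tet2-WT. Its log2 fold changes were -0.11 (95% confidence interval -0.32 to 0.10) and -0.08 (-0.29 to 0.13). The ratio of Hk2 to Hk1 normalized counts was 4.40, 4.75 and 5.76 in the Tet2-WT libraries, 11.1 and 9.77 in Tet2-Mut, and 9.01 and 7.49 in Tet2-KO. The ratio compares libraries and not the abundance of the enzymes, since gene length is not removed.

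Among the enzymes from glucose-6-phosphate isomerase to triosephosphate isomerase, the members other than Hk1 did not pass the test in any of the comparisons. Aldoc, the aldolase best known from brain, had 1958, 1695 and 1271 in Tet2-WT, 910 and 533 in Tet2-Mut, and 603 and 1096 in Tet2-KO. All 4 clones were below every Tet2-WT library, at log2 fold changes of -1.21 and -0.99 (limma adjusted p = 0.061 and 0.085). Gpi1, the isomerase, was likewise below Tet2-WT in all 4 clones, at -0.58 and -0.42. Aldoa and Tpi1 were below Tet2-WT in both Tet2-Mut clones, at -0.59 and -0.70, with values of -0.19 and -0.18 in Tet2-KO. The phosphofructokinase genes Pfkl, Pfkm and Pfkp set the pace of the pathway. Tet2-Mut replicate 1 had 94.9%, 106% and 104% of their Tet2-WT means and replicate 2 had 52.2%, 75.1% and 44.0%.

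The enzymes from glyceraldehyde-3-phosphate dehydrogenase to pyruvate kinase had a median log2 fold change of -0.19 in Tet2-Mut and 0.08 in Tet2-KO. Gapdh, often used as a reference transcript, had 224419, 210346 and 201956 in Tet2-WT, 213378 and 195197 in Tet2-Mut, and 211063 and 229615 in Tet2-KO. Its groups overlapped, at log2 fold changes of -0.06 (95% confidence interval -0.22 to 0.11) and 0.05 (-0.11 to 0.22). Eno1, Pkm, Pgam1 and Gapdh had 102%, 102%, 104% and 101% of the Tet2-WT mean in Tet2-Mut replicate 1 and 78.5%, 72.3%, 79.4% and 92.0% in replicate 2. Pgk1 was lower in both Tet2-Mut clones, at 81.2% and 43.8%, with a log2 fold change of -0.74 (limma adjusted p = 0.10). In Tet2-KO, Eno1, Pkm and Pgam1 were above every Tet2-WT library in both clones, at log2 fold changes of 0.14, 0.12 and 0.11, and none passed the test. Many glycolytic genes have processed pseudogenes, so reads of Gapdh, Eno1, Pgk1, Tpi1, Aldoa, Pkm, Pgam1 and Ldha could be split between copies by the authors' counting.

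Ldhb was the member that separated the altered genotypes past the test. It encodes the lactate dehydrogenase subunit that favours the conversion of lactate to pyruvate, and had normalized counts of 10809, 9814 and 7244 in Tet2-WT. It had 3654 and 3415 in Tet2-Mut and 11150 and 14990 in Tet2-KO. The 3 groups did not overlap: both Tet2-Mut clones were below every Tet2-WT library and both Tet2-KO clones were above. Ldhb fell in Tet2-Mut by 1.37 ± 0.17 (SE) on the log2 scale (limma adjusted p = 0.013), which means that it fell by 61.4%. The log2 fold change of 0.50 ± 0.17 in Tet2-KO did not pass the test (limma adjusted p = 0.12). The direct difference between Tet2-KO and Tet2-Mut was 1.87 ± 0.19 (limma adjusted p = 0.0038).

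Ldha, the subunit that favours lactate formation, had 72931, 68326 and 60514 in Tet2-WT, 68233 and 45408 in Tet2-Mut, and 69169 and 70463 in Tet2-KO. Its groups overlapped, at log2 fold changes of -0.27 and 0.06. The ratio of Ldha to Ldhb was 6.75, 6.96 and 8.35 in Tet2-WT, 18.7 and 13.3 in Tet2-Mut, and 6.20 and 4.70 in Tet2-KO. Slc16a3, a lactate exporter induced by hypoxia, had 10224, 9410 and 9053 in Tet2-WT and 7386 and 2831 in Tet2-Mut. It had 7709 and 9186 in Tet2-KO. Only the Tet2-Mut clones were both below every Tet2-WT library, and they differed from each other by 1.38 on the log2 scale (log2 fold change -1.06, limma adjusted p = 0.097).

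**Figure D3:**
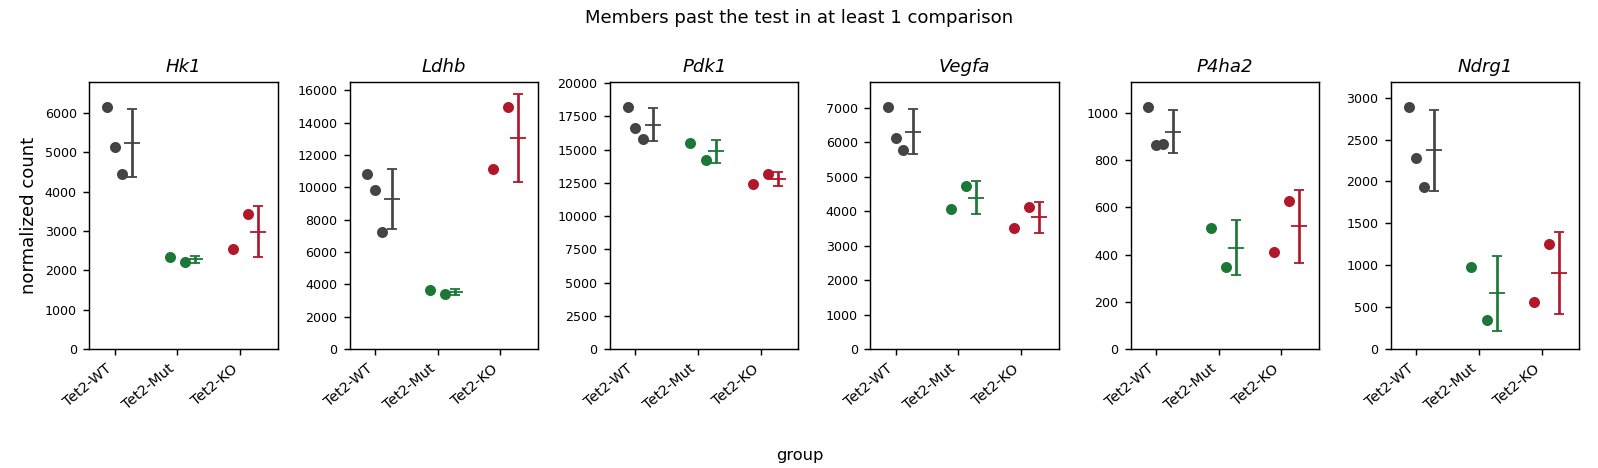
Normalized counts (linear axis from 0) of the 6 members past the test in at least 1 comparison; points are libraries, and the bars beside them are the group mean and SD. Hk1 and Vegfa are lower in all 4 clones, whereas Ldhb is at 3654 and 3415 in Tet2-Mut and at 11150 and 14990 in Tet2-KO.

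Of the regulators of flux, Pdk1, the kinase that switches off pyruvate dehydrogenase, fell in Tet2-KO. It had 18242, 16595 and 15797 in Tet2-WT, 15474 and 14256 in Tet2-Mut, and 12431 and 13140 in Tet2-KO. All 4 clones were below every Tet2-WT library. The log2 fold change was -0.40 ± 0.08 (SE) in Tet2-KO (limma adjusted p = 0.023) and -0.18 ± 0.08 in Tet2-Mut (limma adjusted p = 0.22). Pfkfb3, which makes the activator of phosphofructokinase, had 2726, 2240 and 1967 in Tet2-WT, 1559 and 615 in Tet2-Mut, and 1942 and 2352 in Tet2-KO. The Tet2-Mut clones were below Tet2-WT and the Tet2-KO clones overlapped with it, and the test was not passed in either comparison (log2 fold change -1.22 and -0.10, limma adjusted p = 0.073 and 0.89). Pfkfb4, a related enzyme, had normalized counts of 127 to 233 over all libraries, with overlap between Tet2-WT and both other groups.

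The 11 hypoxia-responsive members were all below every Tet2-WT library in both Tet2-Mut clones, against 19.8% of all genes. All were also below in Tet2-KO replicate 1, against 37.0%. In Tet2-KO replicate 2 there were 8, against 34.2% of all genes, the exceptions being Higd1a, Mxi1 and Ddit4. Their median log2 fold change was -0.87 in Tet2-Mut and -0.85 in Tet2-KO. Of these members 3 fell past the test in Tet2-Mut and 1 in Tet2-KO, where 1.98% and 2.91% of all genes fell.

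Vegfa, the angiogenic growth factor and a direct HIF target, passed in both. Its normalized counts were 7040, 6120 and 5783 in Tet2-WT, 4060 and 4731 in Tet2-Mut, and 3511 and 4130 in Tet2-KO. All 4 clones were below every Tet2-WT library, and it was 1 of only 2 members for which Tet2-Mut replicate 2 was above replicate 1, the other being Pfkfb4. The log2 fold change was -0.52 ± 0.11 (SE) in Tet2-Mut and -0.72 ± 0.11 in Tet2-KO (limma adjusted p = 0.041 and 0.012).

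P4ha2, a subunit of collagen prolyl hydroxylase, had 1026, 865 and 869 in Tet2-WT, 512 and 347 in Tet2-Mut, and 410 and 629 in Tet2-KO. All 4 clones were again lower. The log2 fold change was -1.12 ± 0.22 (SE) in Tet2-Mut (limma adjusted p = 0.033) and -0.85 ± 0.22 in Tet2-KO (limma adjusted p = 0.053). P4ha1, the gene of the related subunit, was at -0.87 and -0.61 (limma adjusted p = 0.051 and 0.11).

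Ndrg1, a stress-responsive gene induced by hypoxia, had 2894, 2285 and 1937 in Tet2-WT, 977 and 351 in Tet2-Mut, and 557 and 1255 in Tet2-KO. Its groups did not overlap with Tet2-WT, but the clones of each genotype lay 1.47 and 1.17 apart on the log2 scale. The log2 fold change was -2.00 ± 0.43 (SE) in Tet2-Mut (limma adjusted p = 0.043) and -1.48 ± 0.43 in Tet2-KO (limma adjusted p = 0.078).

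The members whose Tet2-Mut clones differed most were Ankrd37, Egln3, Bnip3 and Ndrg1. Egln3 encodes a HIF prolyl hydroxylase that is itself induced by HIF, and had 8874, 6593 and 6315 in Tet2-WT, 3295 and 814 in Tet2-Mut, and 917 and 3755 in Tet2-KO. The lowest clone of each genotype thus had 11.2% and 12.6% of the Tet2-WT mean and the other clone 45.4% and 51.7%. Its log2 fold changes, -2.13 ± 0.63 (SE) and -1.95 ± 0.63, were the lowest of the 34 members and did not pass the test (limma adjusted p = 0.0996 and 0.10).

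Ankrd37, a HIF target of little known function, had 1565, 1152 and 1211 in Tet2-WT, 936 and 205 in Tet2-Mut, and 208 and 599 in Tet2-KO. Bnip3, which promotes the removal of mitochondria, had 11982, 9496 and 7558 in Tet2-WT, 5544 and 1514 in Tet2-Mut, and 3915 and 6705 in Tet2-KO. In both genes all 4 clones were below every Tet2-WT library, and Tet2-Mut replicate 2 was the lowest clone, beside Tet2-KO replicate 1 for Ankrd37. The log2 fold changes were -1.57 and -1.87 for Ankrd37 and -1.71 and -0.89 for Bnip3, and none passed the test (limma adjusted p = 0.18, 0.098, 0.080 and 0.29). Egln1, the main HIF prolyl hydroxylase, was at -0.78 and -1.02 (limma adjusted p = 0.13 and 0.051). Ddit4, an inhibitor of mTORC1 signalling, had 13708, 11628 and 9797 in Tet2-WT, 9469 and 4375 in Tet2-Mut, and 5638 and 11708 in Tet2-KO. Higd1a and Mxi1 were at -0.45 and -0.26 in Tet2-Mut and -0.49 and -0.10 in Tet2-KO.

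Ankrd37 and Egln1 lie on chromosome 8, where the median over genes was shifted. The median log2 fold change of its 861 genes tested was 0.27 in Tet2-Mut and -0.26 in Tet2-KO against Tet2-WT, and -0.52 between Tet2-KO and Tet2-Mut. Both members were below Tet2-WT in Tet2-Mut, where that median was positive, and in Tet2-KO, where it was negative. The part of that shift in their values was not tested. Slc2a1, Slc2a3, Pfkm, Pfkp, Tpi1, Slc16a3 and Ankrd37 overlap another gene of the table in the RefSeq annotation, and no source used here states whether the counting was stranded, so their counts may hold reads of the neighbour.

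**Figure D4:**
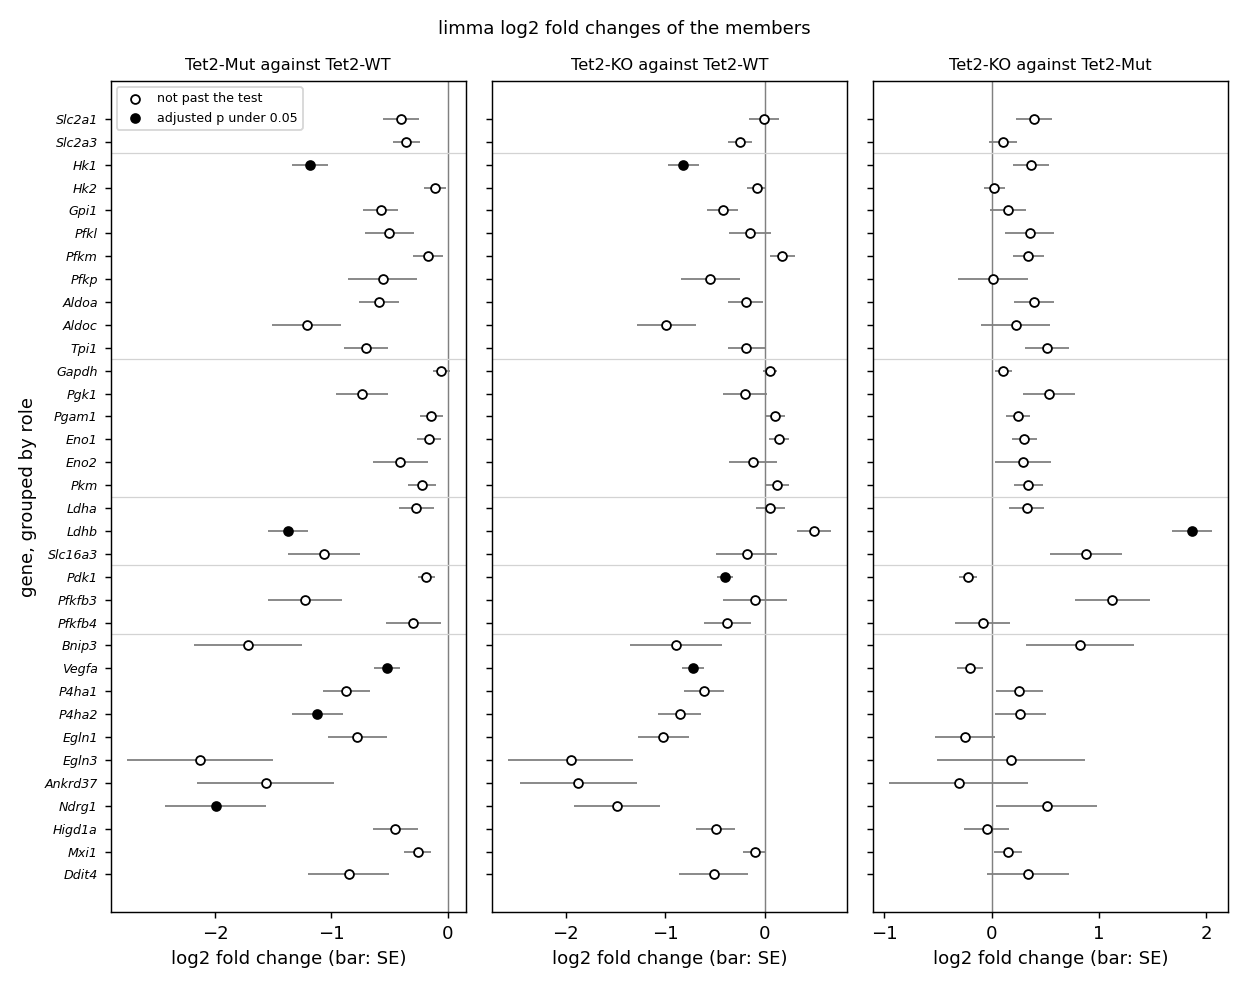
Log2 fold change from limma of each member (rows, grouped by role) in each comparison (panels, with separate axes); bars are standard errors, and filled points passed the test. All 34 Tet2-Mut values lie below 0, and the Tet2-KO values of the lower glycolytic enzymes lie around 0.

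Between Tet2-KO and Tet2-Mut directly, 28 of 34 members had a positive log2 fold change, where 50.7% of all genes did, and the median was 0.28. Ldhb passed the test and was higher, against 2.64% of all genes that were higher and 6.19% that changed in either direction. With limma, edgeR and DESeq2 0 members were lower, where limma called 3.55% of all genes lower. At an unadjusted p under 0.05 there were 9 members, all glycolytic, and 3499 of all 17338 genes. Without Tet2-Mut replicate 1, 15 members were higher in Tet2-KO and the median was 0.59. Without Tet2-Mut replicate 2, Ldhb alone passed and the median was 0.00. Of the Tet2-KO clones, leaving out replicate 1 gave a median of 0.44, and leaving out replicate 2 gave 0.03.

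The calls against Tet2-WT also rested on single libraries. In Tet2-Mut, 26 members fell when replicate 1 was left out, and 3 (Ldhb, Hk1 and Vegfa) when replicate 2 was. Leaving out Tet2-WT replicate 3 kept Ldhb and Hk1. Leaving out Tet2-WT replicate 1 or replicate 2 left 0 with limma, with 16 and 19 members at an unadjusted p under 0.05, and 0 with edgeR. Leaving out Tet2-KO replicate 1 or 2, which only share the estimate of spread, gave 8. In Tet2-KO, leaving out any 1 Tet2-WT library or Tet2-KO replicate 1 left 0 with limma and edgeR, with 6 to 13 members at an unadjusted p under 0.05 in limma. Leaving out Tet2-KO replicate 2 gave 9, and leaving out either Tet2-Mut clone gave 13.

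The wider pathway was read from lists of genes outside the 34. Of 23 other genes of glycolysis, gluconeogenesis and lactate handling, 3 fell in Tet2-KO, where 2.91% of all genes fell. Ldhd, a dehydrogenase of D-lactate, was at -1.09, the glucose-6-phosphatase gene G6pc3 at -0.72 and the fructose bisphosphatase gene Fbp2 at -2.04 (limma adjusted p = 0.024, 0.035 and 0.044). Ldhd lies on chromosome 8, whose median in Tet2-KO was -0.26, and the part of that shift in its value was not tested. In Tet2-Mut 0 passed with limma and with edgeR, with 5 at an unadjusted p under 0.05. Slc16a1, another lactate transporter, had log2 fold changes of 0.04 in Tet2-Mut and 0.00 in Tet2-KO.

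The transcript of Hif1a, the main oxygen-regulated HIF subunit, was not lower. It had 6255, 7340 and 7627 in Tet2-WT, 8268 and 9474 in Tet2-Mut, and 8750 and 7724 in Tet2-KO, and was higher in every clone than in every Tet2-WT library (log2 fold change 0.33 and 0.22, limma adjusted p = 0.12 and 0.24). Of the 15 genes for HIF subunits and their regulators, Hif3a, an inhibitory HIF subunit, fell in Tet2-Mut, at -0.91 ± 0.15 (SE) with a limma adjusted p of 0.023. Its normalized counts were 1472, 1218 and 1042 in Tet2-WT, 718 and 602 in Tet2-Mut, and 1032 and 1044 in Tet2-KO. In Tet2-KO 0 of the 15 passed with limma and with edgeR, with 3 at an unadjusted p under 0.05. RNA does not show HIF protein, which is set mainly by hydroxylation.

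Of 30 other hypoxia-responsive genes, 5 fell and 1 rose in Tet2-KO, and 4 fell and 1 rose in Tet2-Mut. Of all genes tested, limma called 2.91% lower and 521 of 17338 higher in Tet2-KO, and 1.98% lower and 1.44% higher in Tet2-Mut. The adenylate kinase gene Ak4 and the transferrin receptor gene Tfrc fell in both genotypes, at log2 fold changes of -0.67 and -0.48 in Tet2-Mut and -0.63 and -0.47 in Tet2-KO. In Tet2-KO the oxidoreductase gene Ero1a and the collagen lysyl hydroxylase gene Plod1 also fell, at -1.01 and -0.82. In Tet2-Mut the carbonic anhydrase gene Car12 and the lysyl oxidase-like gene Loxl2 fell, at -1.59 and -1.07. The gene that rose in Tet2-KO was Lox, at 1.49. It encodes a collagen-crosslinking enzyme that fibroblasts also make, and its normalized counts of 753 and 359 in Tet2-KO replicates 1 and 2 followed the order of the summed fibroblast markers given above, whose part in it was not tested. Hmox1, the heme oxygenase gene on chromosome 8, rose by 0.55 in Tet2-Mut and fell by 0.36 in Tet2-KO, the signs of that chromosome's median.

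Neighbouring pathways were read in the same way. Of 14 genes of pyruvate entry into mitochondria and of 7 of the pentose phosphate pathway, 0 passed in Tet2-Mut with limma and edgeR, with 5 and 2 at an unadjusted p under 0.05. In Tet2-KO 0 passed with limma, with 3 and 3 at an unadjusted p under 0.05, while edgeR called 2 genes of the pentose phosphate list higher. Between the altered genotypes, the phosphatase subunit genes Pdp2 and Pdpr and the lactonase gene Pgls were lower in Tet2-KO, at -0.60, -0.61 and -0.63; all are on chromosome 8.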

How the data were processed

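RNA was measured in 7 libraries; the other 21 samples of the series (bisulfite sequencing and CUT&Tag) were left out. The deposited values are a linear signal, read counts per gene that the authors scaled by size factors of DESeq2. The submitters' processing notes list the mm10 build and, among other tools, featureCounts, STAR 2.7.3a and Trim Galore 0.6.5. Which annotation was counted is not given there. Dividing each library by its smallest step gave whole numbers for every value (100% to within 0.01 reads; in Tet2-WT replicate 1 the smallest value was 2 reads), so whole reads were recovered for the alternatives.

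Groups were tested with limma 3.58.1 (R 4.3.3) on log2(normalized count + 1) in 1 model of group means over all 7 libraries, keeping genes that reached a normalized count of 10 in 2 or more libraries. The prior variance followed the mean and p-values were Benjamini-Hochberg adjusted over all 17338 genes at 0.05. Residual degrees of freedom were 4 and the prior added 5.03. Fold changes understate the change of low genes. Alternatives were edgeR 4.0.16 and DESeq2 1.42.0 on the recovered reads, other pseudocounts, filters, scalings and priors, a replicate block, fits of only the groups compared, and fits that leave out 1 library. The limma fit was run on simulated counts with the same dispersion for every gene and changes only in Tet2-KO. Such counts lack clone differences like those seen here, so the run does not test the estimate of spread. Gene positions and promoter sequences are from RefSeq (GRCm38.p6).

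Members and gene lists were chosen with earlier results of these data known. Values in every library are given for members past the test and for the 4 members with the largest difference between the Tet2-Mut clones. They are also given for some other genes. Those others, among them Hif1a, were chosen after their values were seen, as were Slc16a1, Lox and Car12. Other lists give members past the test, up to 4 per comparison by smallest p.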

Additional observations from a re-analysis of the deposited data

Results flagged for a closer look

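Ldhb was the member for which the effects of the altered genotypes against Tet2-WT differed: it was lower in Tet2-Mut (log2 fold change -1.37) and higher in Tet2-KO (0.50), a difference of 1.87 ± 0.19 (SE) with a limma adjusted p of 0.0038 over all genes. Both Tet2-KO clones were above both Tet2-Mut clones. The call held when any 1 library was left out, and was lost without the trend in the prior and when only the Tet2-KO and Tet2-Mut libraries were fitted.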

How the results depend on the processing

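Every member that passed the test kept its direction under all alternatives that gave a value, but the number passing depended on the estimate of spread. In the order Tet2-KO against Tet2-WT, Tet2-Mut against Tet2-WT and Tet2-KO against Tet2-Mut, 3, 5 and 1 members passed with limma. A pseudocount of 10 gave 5 in the first. DESeq2 gave 6 and 10 in the first pair, the 6 including Ldhb as higher in Tet2-KO, and edgeR gave 3, 4 and 1. A prior without a trend gave 0, 0 and 0, with 7, 15 and 2 at an unadjusted p under 0.05. Only the groups compared gave 13, 9 and 0, with 3 at an unadjusted p under 0.05 in the last. Leaving out 1 library gave 0 to 13, 0 to 26 and 1 to 15.

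Over all genes, 1025, 594 and 1074 passed with limma. DESeq2 gave 1992, 1555 and 1808, a prior without a trend gave 19, 0 and 10, only the groups compared gave 2153, 901 and 0, and leaving out 1 library gave 85 to 2158, 6 to 2198 and 530 to 2679. The 0 calls had 3018 and 2351 genes at an unadjusted p under 0.05.

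Replicate numbers were not used as pairs in the main fit, and same-numbered deviations from the group means correlated at -0.07 to 0.09. In a group of 2 clones the deviations mirror each other, so these correlations are not all separate. Whether same-numbered samples shared a batch was not tested. A replicate block left 0, 1 and 1 members, Ldhb in both, and 15, 7 and 467 genes.

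With 2 clones per altered genotype, the shared estimate of spread can understate or overstate the error of a genotype effect. Depth did not limit the members, whose lowest normalized count was 127.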

Other observations

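Genes of the integrated stress response, which adapt amino acid supply, were described for a list of 12 outside the module. Of these 4 rose in Tet2-Mut: Mthfd2 at a log2 fold change of 0.58, Slc3a2 at 0.46, Sesn2 at 0.44 and Phgdh at 0.31 (limma adjusted p = 0.035, 0.049, 0.036 and 0.041). Sesn2 also rose in Tet2-KO, at 0.43 (limma adjusted p = 0.028). Of all genes tested, limma called 1.44% higher in Tet2-Mut and 521 of 17338 higher in Tet2-KO. Both Tet2-Mut clones were above every Tet2-WT library for 8 of the 12, where 20.9% of all genes were. Both Tet2-KO clones were above every Tet2-WT library for 7, where 21.9% of all genes were. Atf4, the transcription factor of this response, had 12193, 13725 and 13948 in Tet2-WT, 16793 and 23061 in Tet2-Mut, and 19416 and 15829 in Tet2-KO, at log2 fold changes of 0.57 and 0.40 (limma adjusted p = 0.058 and 0.12).

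Markers of formative and primed pluripotency, the states that follow the naive one, rose in Tet2-KO for 4 of 8, namely Sox3 at 2.47, Sall2 at 1.92, Pou3f1 at 1.43 and Dnmt3b at 1.14. In Tet2-Mut 0 passed with limma and with edgeR, with 3 at an unadjusted p under 0.05. The Tet2-Mut clones went opposite ways: the median log2 difference of these markers from the Tet2-WT mean was 0.56 in replicate 1 and -0.32 in replicate 2. Replicate 2 was the lowest of the 4 clones for 8 of 8 of these markers and for 14 of 15 fibroblast markers. It was also the lowest for 29 of the 34 members, against 30.9% of all genes. Of the 10 pluripotent cell markers, Nanog fell by 0.37 in Tet2-Mut (limma adjusted p = 0.046), where 1.98% of all genes fell. Dppa4 was lower in Tet2-KO than in Tet2-Mut, at -0.42 (limma adjusted p = 0.014), where 3.55% of all genes were. The fibroblast markers that rose in Tet2-KO were 5 of 15, Tagln at 2.27 being the first by p.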
